A study of Mus musculus with 15 samples.

Results

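Expression of 10 antioxidant enzyme genes was measured in hematopoietic stem cells (HSC) from 3 groups of mice, which were young, aged, or aged and given nicotinamide riboside (NR), a precursor of NAD. The genes were chosen by name, and were Sod1, Sod2, Cat, Gpx1, Gpx4, Prdx1, Prdx2, Prdx3, Txn1 and Txnrd1. All 10 had a row among the 16154 genes of the deposited count table, and each had between 26 and 48396 counts in every library. The mice were C57BL/6 females by the labels, with 5 libraries in each of 3 groups and 1 mouse per library. Young mice were 6 to 12 weeks old, aged mice were 20 to 24 months old, and NR-treated mice were aged mice that drank water with 3 mg/ml NR for 2 months. The young and the aged group had no NR. HSC were sorted from bone marrow as lineage-negative Sca-1+ cKit+ CD150+ CD48- cells, with 20000 to 25000 cells per mouse, and B220, Mac-1, Gr-1 and Ter119 marked the lineages that were removed. Levels are given as counts scaled to a common library size (CPM), with sizes from the trimmed mean of M-values (TMM), which makes libraries comparable. Differences between groups, and not between the levels of different genes, are given as results. Mean CPM served besides to choose which pathway genes were named and which genes formed a background of abundant genes.

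Antioxidant enzymes remove the reactive oxygen species that respiration and oxidases produce. Superoxide dismutases turn superoxide into hydrogen peroxide, in the cytosol (Sod1) and in mitochondria (Sod2). Catalase, the glutathione peroxidases and the peroxiredoxins then reduce the peroxide, the last of these with electrons from thioredoxin, which thioredoxin reductase recharges from NADPH. HSC are kept quiescent at a low level of reactive oxygen species, and loss of control over them is known to drive HSC into division and exhaustion.

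Libraries differed in depth, in sex-linked reads and in reads of mature blood cells. The total count was 2122221 to 3631395 in young, 764119 (replicate 2) to 13318989 (replicate 3) in aged and 2486399 to 3595384 in NR-treated HSC. Y-linked genes summed to 104 CPM in young replicate 1 and 108 CPM in young replicate 5, against at most 3.16 CPM in the other 13 libraries, although all mice were labelled female. The X-linked gene Xist was at 437 and 482 CPM in these 2 libraries, within the 295.8 to 918.5 CPM of the other 13. The source of the Y-linked reads was not tested. The 8 HSC markers each had at least 19 counts in every library, with a summed level of 1306 to 1681 CPM in young, 1496 to 1911 in aged and 1401 to 1839 in NR-treated HSC. The 7 erythroid markers summed to 125 to 2636 CPM in young, 3155 to 6471 in aged and 65.8 to 552 in NR-treated HSC, although Ter119+ cells were depleted with beads before the sort. The 6 granulocyte markers summed to 20.5 to 4593, 511 to 1283 and 5.11 to 107 CPM, and the 5 measured of 6 B cell markers to 99.7 to 738, 586 to 4214 and 82.5 to 159 CPM, in the same order of groups. Macrophage and monocyte markers (6 genes) summed to 377 to 2482, 681 to 1603 and 299 to 486 CPM, megakaryocyte and platelet markers (5 genes) to 536 to 640, 553 to 951 and 414 to 1319 CPM, and the 2 measured of 3 T cell markers to at most 27.4 CPM. In these bulk samples fewer cells of a type and less RNA per cell cannot be told apart.

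The promoters of the 4 genes that differed between groups are shown because Prdx1, Prdx2 and Gpx1 moved in the same direction with NR while Txnrd1 moved the opposite way from Prdx1 with age. Each is the RefSeq window of 250 bases before to 50 bases after a start site, on the plus strand of GRCm38.p6. The Prdx1 window lies at chr4:116685349-116685648, the Txnrd1 window at chr10:82858956-82859255 (1 of 3 annotated starts), the Gpx1 window at chr9:108338830-108339129 and the Prdx2 window at chr8:84969372-84969671. Capitals mark matches, on either strand, to the core TGACNNNGC of the antioxidant response element, the site class of the transcription factor Nrf2.
Prdx1: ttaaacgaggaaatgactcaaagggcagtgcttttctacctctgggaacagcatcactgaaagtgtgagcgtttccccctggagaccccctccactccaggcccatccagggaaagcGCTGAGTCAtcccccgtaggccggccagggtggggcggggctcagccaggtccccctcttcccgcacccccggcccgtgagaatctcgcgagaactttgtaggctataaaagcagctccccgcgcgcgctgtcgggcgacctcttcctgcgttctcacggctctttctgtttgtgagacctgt
Txnrd1: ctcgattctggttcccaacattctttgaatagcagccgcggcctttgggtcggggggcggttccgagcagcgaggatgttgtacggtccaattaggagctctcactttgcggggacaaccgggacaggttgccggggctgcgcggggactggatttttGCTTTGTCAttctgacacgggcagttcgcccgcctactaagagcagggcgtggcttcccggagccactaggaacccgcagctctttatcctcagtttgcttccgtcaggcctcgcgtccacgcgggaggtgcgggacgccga
Gpx1: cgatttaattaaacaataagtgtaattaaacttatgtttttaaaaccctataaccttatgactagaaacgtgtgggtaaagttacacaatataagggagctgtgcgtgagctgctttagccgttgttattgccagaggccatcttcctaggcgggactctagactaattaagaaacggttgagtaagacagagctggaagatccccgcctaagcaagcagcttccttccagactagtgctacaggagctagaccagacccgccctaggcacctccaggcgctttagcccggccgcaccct
Prdx2: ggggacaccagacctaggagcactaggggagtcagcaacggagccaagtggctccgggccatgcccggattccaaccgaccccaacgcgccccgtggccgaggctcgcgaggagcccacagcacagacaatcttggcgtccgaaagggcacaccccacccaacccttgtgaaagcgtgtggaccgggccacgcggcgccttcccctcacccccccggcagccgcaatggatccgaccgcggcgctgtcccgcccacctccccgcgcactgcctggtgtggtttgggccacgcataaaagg
The core matched once in the printed windows of Prdx1 and Txnrd1 and also in that of Sod1. Thus 3 of 15 windows held it, against 12.4% of all 32851 promoter windows. Of the 3 Txnrd1 windows only the printed one matched. By gene 3 of 10 held the core, but Txnrd1 had 3 windows and Gpx4 had 4, so this share is not comparable with that of windows. In Prdx1 the core overlapped 1 of 2 matches to the AP-1 letters TGACTCA, which 5.2% of all windows held. The FOXO letters GTAAACA were in none of the 15 windows and in 3.65% of all windows. TATAAA was found in the windows of Sod1, Prdx1, Prdx3 and Txn1 and in 13.6% of all windows. These matches describe letters and say nothing of binding.

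Aged and young HSC were compared to ask how the enzymes differ with age. Prdx1, a cytosolic peroxiredoxin, rose 1.40-fold, Prdx2, a second cytosolic peroxiredoxin that is abundant in red blood cells, rose 1.23-fold, and Txnrd1, the cytosolic thioredoxin reductase, fell by 23.5%. The other 7 genes did not pass an adjusted p of 0.05 (edgeR's quasi-likelihood test, Benjamini-Hochberg over all genes). The 3 of 10 called compare with 19.3% of all genes tested and with 26.5% of the 4952 genes whose mean CPM reached that of Gpx4 (40.6 CPM). In the rising direction 2 of 10 passed (9.68% of all genes) and in the falling direction 1 of 10 (9.63%). The groups did not overlap in 2 of the 10 genes, against 12.4% of all genes. The median log2 fold change over the 10 was 0.25, with 7 above 0, beside a median of -0.03 over all genes. With library totals in place of TMM, 1020 genes were higher and 2485 lower in place of 1564 and 1556, the median of the 10 was 0.12 beside -0.16, and 1 of the 10 was higher (Prdx1) and 2 were lower (Cat and Txnrd1).

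**Figure D1:**
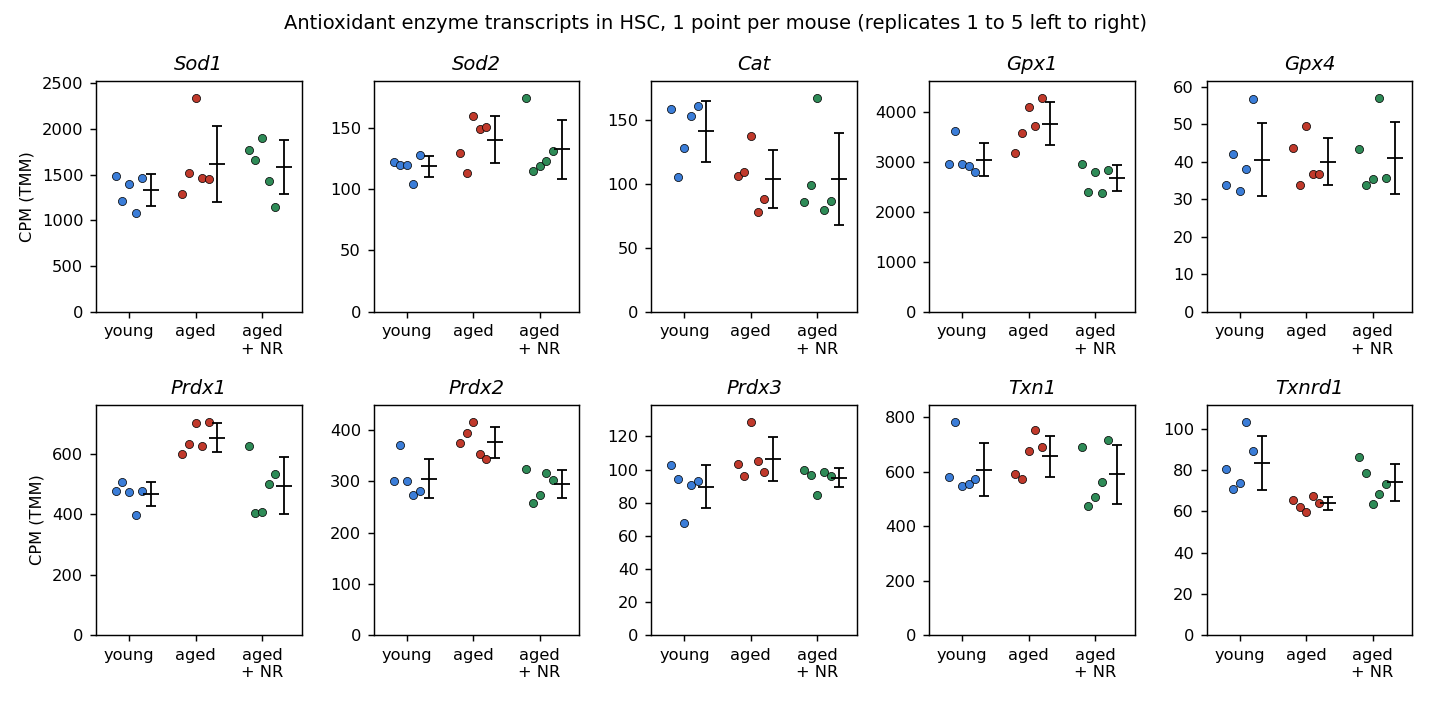
CPM (TMM) of the 10 antioxidant enzyme genes in each library, with 1 point per mouse, 5 mice per group, and bars for the mean and SD of each group. The y axes start at 0 and differ between genes. Prdx1 of aged HSC lies at 601 to 706 CPM, above all young libraries, and Gpx1 of NR-treated HSC at 2386 to 2950 CPM, below all aged libraries.

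Among the superoxide dismutases, Sod1 (chr16:90220754-90226329, plus strand, GRCm38) had a mean of 1327 ± 175 CPM (SD, n = 5) in the young and 1613 ± 412 CPM (n = 5) in the aged group, with a log2 fold change of 0.28 (SE 0.16, adjusted p = 0.22). The aged libraries read 1292, 1517, 2335, 1466 and 1456 CPM, so that replicate 3 alone stood above the rest. A pseudogene with a row of its own, Gm8566, was at least 95% identical to Sod1 over its last bases, and how the counting split such reads is not given in the sources used here. Sod2 (chr17:13006846-13040063, plus strand), the manganese enzyme of mitochondria, went from 119 ± 8.61 CPM (young) to 140 ± 19.0 CPM (aged), with a log2 fold change of 0.25 (SE 0.12, adjusted p = 0.157). The last bases of its longest transcript matched 9 other genes, 6 of them with a row, which makes its count uncertain. For both genes the aged range overlapped the young range.

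Catalase, the peroxisomal enzyme that splits hydrogen peroxide without a cofactor that must be recharged, is encoded by Cat (chr2:103453849-103485160, minus strand). Cat read 159, 105, 128, 154 and 161 CPM in the young mice and 106, 109, 138, 78.1 and 88.6 CPM in the aged mice. The 3 highest of these 10 values were young and the 2 lowest were aged, and the ranges overlapped. The log2 fold change was -0.45 (SE 0.19), with an unadjusted p = 0.0296 from edgeR and an adjusted p = 0.106. It passed with library totals in place of TMM (adjusted p = 0.0383) and without NR-treated replicate 3 (adjusted p = 0.0424). That replicate was in neither group compared, and without it the log2 fold change stayed at -0.445 while the SE was 0.148.

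The glutathione peroxidases are selenoproteins that reduce peroxides with glutathione, Gpx1 in the cytosol and mitochondria and Gpx4 in membranes, where it reduces lipid peroxides. Gpx1 (chr9:108338903-108340343, plus strand) read 2963, 3614, 2947, 2911 and 2795 CPM in the young mice and 3177, 3577, 4090, 3708 and 4275 CPM in the aged mice. Young replicate 2 lay among the aged libraries and the other 4 young libraries lay below all of them. The means were 3046 ± 325 and 3766 ± 433 CPM (SD, n = 5 each), with a log2 fold change of 0.31 (SE 0.11, 95% interval 0.08 to 0.53) that missed the threshold (adjusted p = 0.0532). It passed without young replicate 2 (adjusted p = 0.0164) or without aged replicate 1 (0.0278), with DESeq2 (0.0188) and with limma-voom (0.0254). Gpx4 (chr10:80047166-80056439, plus strand) had means of 40.6 ± 9.77 CPM (young) and 40.1 ± 6.37 CPM (aged), and the 95% interval of its log2 fold change was -0.37 to 0.36. The last bases of its longest transcript matched 2 pseudogenes that have no row, which makes its count uncertain.

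The peroxiredoxins reduce peroxides through a reactive cysteine, Prdx1 and Prdx2 in the cytosol and Prdx3 in mitochondria. Prdx1 (chr4:116685544-116700822, plus strand) read 476, 507, 475, 399 and 477 CPM in the young mice and 601, 633, 701, 624 and 706 CPM in the aged mice. Every aged library stood above every young library. The means were 467 ± 39.9 and 653 ± 47.6 CPM (SD, n = 5 each), a log2 fold change of 0.49 (SE 0.12, adjusted p = 0.00755). The call was kept in each of the 15 fits that left out 1 library and in the 11 other alternatives, including the fit without young replicates 1 and 5 (log2 0.51, adjusted p = 0.0353).

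Prdx2 (chr8:84969587-84974834, plus strand) read 299, 370, 300.0, 274 and 280.2 CPM in the young mice and 373, 393, 415, 352 and 342 CPM in the aged mice. Young replicate 2 lay among the aged libraries and the other 4 young libraries lay below them. The means were 305 ± 38.2 and 375 ± 29.8 CPM (SD, n = 5 each), a log2 fold change of 0.30 (SE 0.10, adjusted p = 0.0489). This call was kept in 2 of 15 fits that left out a library (without young replicate 2 and without NR-treated replicate 2), and in the other 13 the adjusted p was 0.0515 to 0.133. It was 0.207 without young replicates 1 and 5, 0.0604 in the likelihood ratio test and 0.2103 with library totals. Prdx2 shares exonic positions with Junb and Rnaseh2a on the opposite strand, and the strand setting of the counting is not given in the sources used here, so its count is uncertain. Junb, a subunit of AP-1, had means of 732 ± 344 CPM (young) and 781 ± 263 CPM (aged) (log2 0.10, adjusted p = 0.838).

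Prdx3 (chr19:60864051-60874556, minus strand) ranged over 67.8 to 103 CPM in the young mice and 96.0 to 129 CPM in the aged mice, with means of 89.6 ± 13.0 and 106 ± 13.0 CPM (SD, n = 5 each). Its log2 fold change was 0.25 (SE 0.12), with an unadjusted p = 0.0398 from edgeR and an adjusted p = 0.130. In the thioredoxin system, Txn1 (chr4:57943373-57956411, minus strand), the cytosolic thioredoxin, had means of 607 ± 98.5 CPM (young) and 656 ± 74.3 CPM (aged) (log2 0.11, 95% interval -0.16 to 0.39). Txnrd1 (chr10:82833951-82897712, plus strand), the selenoprotein that recharges it, read 80.7, 70.7, 73.7, 103 and 89.3 CPM in the young mice and 65.6, 62.3, 59.9, 67.7 and 63.9 CPM in the aged mice. All 5 aged libraries lay below the lowest young library, and they spread less than the young ones. The means were 83.6 ± 13.2 and 63.9 ± 3.00 CPM, a log2 fold change of -0.39 (SE 0.12, adjusted p = 0.0274). The call was lost without young replicate 4 (adjusted p = 0.0905), young replicate 5 (0.0647), aged replicate 3 (0.0707) or aged replicate 5 (0.0554), without young replicates 1 and 5 together (0.103), and with counts thinned to the smallest total (0.176).

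**Figure D2:**
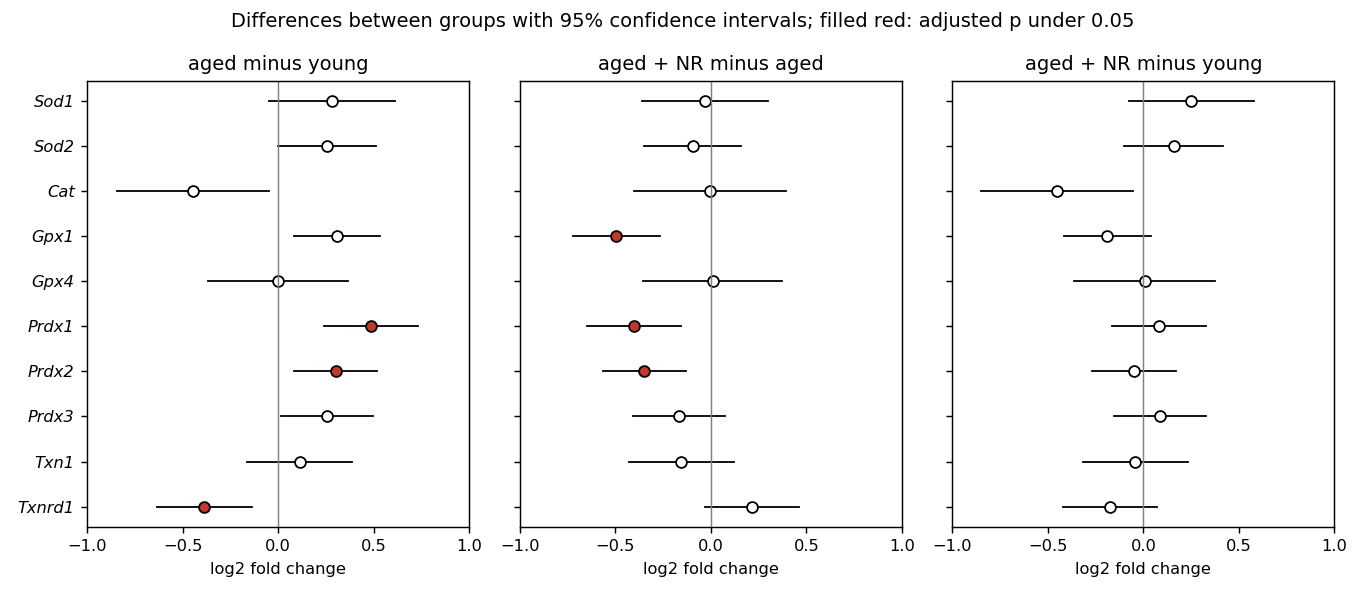
Log2 fold changes of the 10 genes in the 3 comparisons (x axis) with 95% confidence intervals from the edgeR fit, with filled red points where the adjusted p was under 0.05. The first and second panels share the aged libraries. Prdx1 lies at 0.49 and -0.40, Prdx2 at 0.30 and -0.35, Gpx1 at 0.31 and -0.50 and Txnrd1 at -0.39 and 0.21 in these panels.

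NR-treated and aged HSC were compared to ask how the enzymes differ after NR. Gpx1 fell by 29.0%, Prdx1 fell by 24.3% and Prdx2 fell by 21.5% from the aged level, and no gene of the 10 rose. The 3 of 10 called, all lower, compare with 8.07% of all genes called in either direction, 4.18% lower and 3.88% higher, and with 11.1% of the genes at least as abundant as Gpx4. The median log2 fold change over the 10 was -0.13, beside 0.02 over all genes. With library totals in place of TMM, 1246 genes were higher and 344 lower in place of 627 and 676, the median of the 10 was 0.01 beside 0.16 over all genes, and Gpx1 alone of the 10 passed. The groups did not overlap in 2 of the 10, against 8.60% of all genes. The aged libraries were the same as in the comparison with young HSC, so a high or low aged library enters both with opposite sign.

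Gpx1 read 2950, 2403, 2789, 2386 and 2832 CPM in NR-treated HSC, each below the lowest aged library at 3177 CPM. The mean of 2672 ± 260.0 CPM (SD, n = 5) was 0.50 lower than in aged HSC on the log2 scale (SE 0.11, adjusted p = 0.0117). The call was kept in all 15 fits that left out a library, with adjusted p between 0.00509 and 0.0422, and without young replicates 1 and 5 (0.0198).

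Prdx1 read 627, 404, 406, 499 and 535 CPM in NR-treated HSC. Replicate 1 lay among the aged libraries and the other 4 lay below them. The mean was 494 ± 93.7 CPM (SD, n = 5), a log2 fold change of -0.40 (SE 0.12, adjusted p = 0.0417). The call was lost without young replicate 1 or 5, aged replicate 2, 3, 4 or 5, or NR-treated replicate 2, 3 or 4, with adjusted p of 0.0514 to 0.114 in these 9 fits. With library totals in place of TMM it was 0.1146. Without young replicates 1 and 5 together it was 0.0619.

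Prdx2 read 323, 258, 273, 315 and 303 CPM in NR-treated HSC, all below the lowest aged library at 342 CPM. The mean was 294 ± 27.9 CPM (SD, n = 5), a log2 fold change of -0.35 (SE 0.10, adjusted p = 0.0446). The call was lost in 11 of 15 fits that left out a library (adjusted p 0.0528 to 0.134) and was kept without young replicate 2, 3 or 4 or NR-treated replicate 1. The adjusted p was 0.0622 without young replicates 1 and 5 together and 0.169 with library totals. Junb, which shares exonic positions with Prdx2, was at 425 ± 145 CPM in NR-treated HSC, a log2 fold change of -0.88 from aged HSC (adjusted p = 0.0440), and its part in the Prdx2 count was not tested.

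The other 7 genes did not pass. Txnrd1 read 86.4, 78.7, 63.4, 68.7 and 73.3 CPM in NR-treated HSC, a mean of 74.1 ± 8.92 CPM that lay between the aged and the young mean, with a log2 fold change of 0.21 from aged HSC (95% interval -0.03 to 0.46, adjusted p = 0.267). Sod1 (1580 ± 296 CPM), Sod2 (132 ± 24.2 CPM) and Gpx4 (41.1 ± 9.68 CPM) had log2 fold changes of -0.03, -0.10 and 0.01. Cat read 86.2, 99.0, 167, 80.0 and 86.6 CPM, with replicate 3 above all aged libraries and the other 4 within the aged range, a log2 fold change of -0.0054 with a 95% interval of -0.40 to 0.39. Prdx3 (95.2 ± 6.01 CPM) and Txn1 (589 ± 108 CPM) had log2 fold changes of -0.17 and -0.16, with 95% intervals of -0.41 to 0.07 and -0.43 to 0.12.

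**Figure D3:**
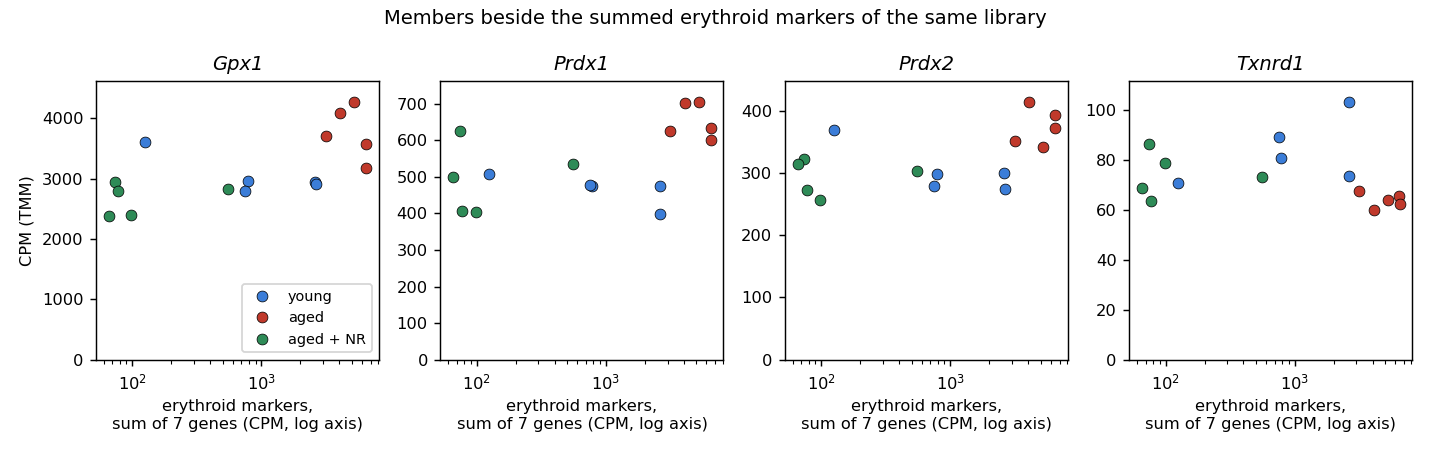
CPM (TMM) of Gpx1, Prdx1, Prdx2 and Txnrd1 (y axes from 0) against the summed CPM of 7 erythroid markers in the same library (log x axis), with 1 point per library and colours for the 3 groups. The aged libraries lie at 3155 to 6471 CPM of erythroid markers, the NR-treated at 65.8 to 552 and the young at 125 to 2636.

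Between groups, erythroid markers moved in the same direction as Gpx1, Prdx1 and Prdx2. All 7 fell in NR-treated against aged HSC and 3 of 7 rose in aged against young HSC. Of all genes, 8.07% were called with NR and 19.3% with age, in either direction, which is the background for all marker counts here. Granulocyte (6 of 6), macrophage and monocyte (3 of 6) and B cell markers (4 of 5) were also called lower with NR. With age, 2 of 5 B cell markers rose, while 0 of 6 granulocyte and 0 of 6 macrophage and monocyte markers passed. Of the megakaryocyte and platelet markers 1 of 5 rose with NR. Neither T cell marker passed. Of the HSC markers, 3 of 8 rose with age (Ly6a, Slamf1 and Procr, log2 1.21, 0.84 and 1.27) and 1 of 8 fell with NR (Slamf1, log2 -0.51). Ly6a and Slamf1 encode Sca-1 and CD150, by which the cells were sorted. Gpx1, Prdx1 and Prdx2 are given for the libraries with the lowest and the highest erythroid sum of each group. Young replicate 2 had the lowest sum (125 CPM) and the highest Gpx1, Prdx1 and Prdx2 of its group (3614, 507 and 370 CPM). Young replicate 4 had the highest sum (2636 CPM), a Gpx1 of 2911 CPM and the lowest Prdx1 and Prdx2 (399 and 274 CPM). Aged replicate 4 had the lowest sum (3155 CPM) and read 3708, 624 and 352 CPM. Aged replicate 2 had the highest sum (6471 CPM) and read 3577, 633 and 393 CPM. NR-treated replicate 4 had the lowest sum (65.8 CPM), the lowest Gpx1 (2386 CPM), and 499 and 315 CPM of Prdx1 and Prdx2. NR-treated replicate 5 had the highest sum (552 CPM) and read 2832, 535 and 303 CPM. The part of these cell types in the Gpx1, Prdx1 and Prdx2 differences between groups was not tested.

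NR-treated and young HSC were compared to ask where the enzymes of treated mice lay relative to young mice. None of the 10 passed in edgeR's quasi-likelihood test, against 4.47% of all genes, and 1 of 10 had an unadjusted p under 0.05. The likelihood ratio test, DESeq2 and limma-voom also called 0 of 10. The groups overlapped in all 10 genes, while 4.74% of all genes did not overlap. Intervals were wide enough to leave differences undetected. The 95% interval of the log2 fold change was -0.16 to 0.33 for Prdx1, -0.27 to 0.17 for Prdx2, -0.42 to 0.04 for Gpx1 and -0.42 to 0.07 for Txnrd1. Cat had the largest difference of the 10, at -0.45 (95% interval -0.85 to -0.05, adjusted p = 0.208), and passed without NR-treated replicate 3 (log2 -0.69, adjusted p = 0.017). By group means, aged HSC were highest in 7 of the 10 genes, young HSC in Cat and Txnrd1 and NR-treated HSC in Gpx4, and outside the calls given above neighbouring groups in these orders did not differ past the threshold.

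Other genes of the antioxidant pathway were counted in 7 lists by role, 75 genes of which 74 had a row (Sod3 had none). In aged against young HSC 13 rose and 4 fell (23.0%, beside 19.3% of all genes). In NR-treated against aged HSC 11 fell and none rose (14.9%, beside 8.07%), and in NR-treated against young HSC 3 rose and 5 fell (10.8%, beside 4.47%). With library totals in place of TMM the split was 7 higher and 9 lower with age and 2 higher and 8 lower with NR. That scaling moved the median of all genes from -0.03 to -0.16 with age and from 0.02 to 0.16 with NR, so these directions are relative to that shift. None of the 36 pathway calls changed sign under any alternative run, and 21 of the 36 were kept in each of the 15 fits that left out a library. Without young replicates 1 and 5, 8 of the 17 calls with age were lost (Tkt, Txnip, Nfe2l2, Hmox1, Glrx3, Txnl1, Mgst3 and Ggct, adjusted p 0.05003 to 0.285), and so were the Txnip and Gsta4 calls between NR-treated and young HSC (0.152 and 0.223). With library totals the calls with age of Mgst3, Txnip, Nfe2l2, Sars, Glrx3 and Txnl1 (adjusted p 0.079 to 0.157) and the calls with NR of Gsr, Prdx4 and Prdx5 (0.0582 to 0.0716) were lost.

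**Figure D4:**
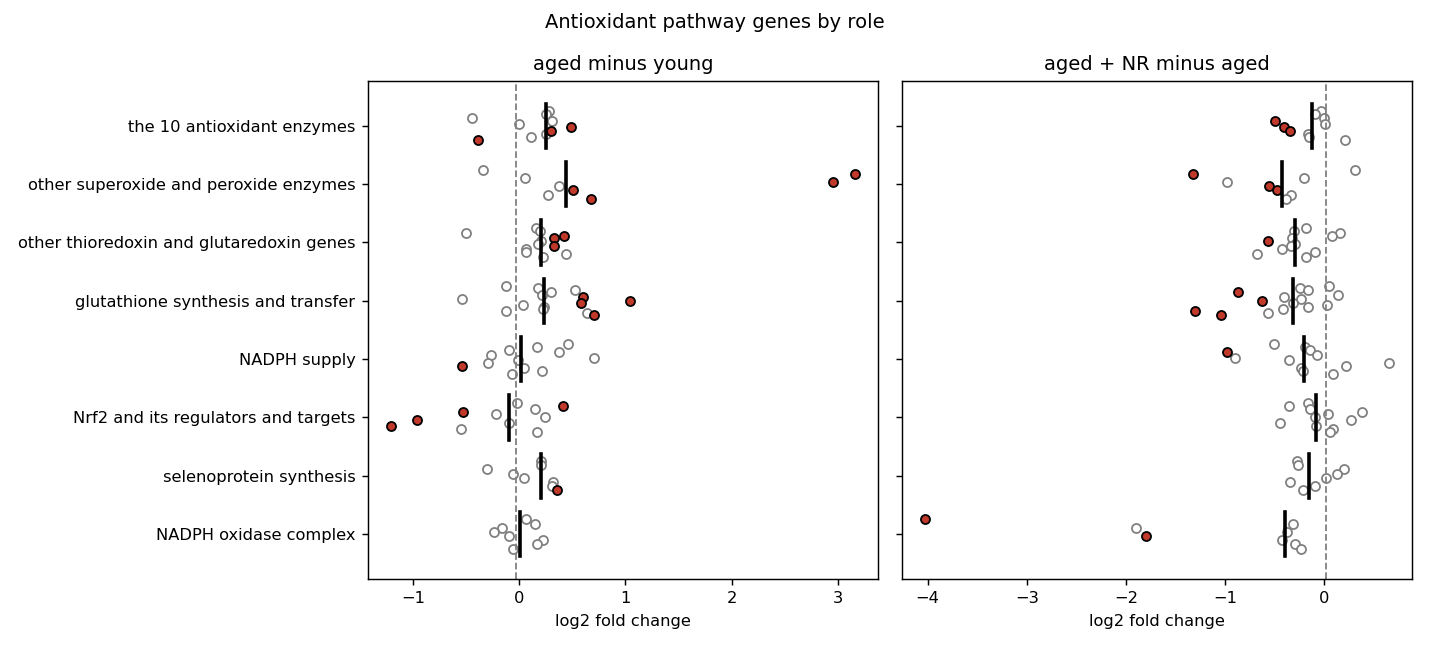
Log2 fold changes (x axes, which differ in range) of the 10 enzymes and the 7 pathway lists (rows) for aged minus young and NR-treated minus aged HSC, with 1 point per gene, filled red where the adjusted p was under 0.05, a black bar at each list's median and a dashed line at the median of all genes tested. Gpx3 and Gpx8 stand apart at 3.16 and 2.95 in aged against young HSC.

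Of the other superoxide and peroxide enzymes, 4 of 8 rose with age and 3 of 8 fell with NR. The called shares were 50% and 37.5%, beside 19.3% and 8.07% of all genes. Gpx3, the secreted glutathione peroxidase, was at 6.86 ± 2.71 CPM in young, 59.7 ± 7.59 in aged and 23.9 ± 3.62 in NR-treated HSC (SD, n = 5 each). The groups did not overlap, with log2 fold changes of 3.16 with age (adjusted p = 3.88e-09), -1.32 with NR (adjusted p = 0.000778) and 1.84 between NR-treated and young HSC (adjusted p = 1.76e-05). Gpx8, a peroxidase of the endoplasmic reticulum, rose from 2.91 ± 1.58 to 22.9 ± 5.35 CPM with age (log2 2.95, adjusted p = 1.21e-05), and at 11.7 ± 5.01 CPM in NR-treated HSC it was above young HSC (log2 1.97, adjusted p = 0.00289), while the difference from aged HSC missed the threshold (adjusted p = 0.0504) but passed in the likelihood ratio test, DESeq2, limma-voom and the fit without young replicates 1 and 5. Prdx5, a peroxiredoxin found in mitochondria and peroxisomes, was at 234 ± 35.8, 332 ± 28.7 and 239 ± 34.5 CPM in the 3 groups, rising by 0.51 with age (adjusted p = 0.00658) and falling by 0.47 on the log2 scale with NR (adjusted p = 0.023, lost without aged replicate 3 or NR-treated replicate 3 or 4, where it was up to 0.0777). Srxn1, the sulfiredoxin that repairs overoxidised peroxiredoxins, rose by 0.68 with age (adjusted p = 0.00832), and Prdx4, the peroxiredoxin of the endoplasmic reticulum, fell by 0.56 with NR (adjusted p = 0.0222, lost without aged replicate 3 or 4 or NR-treated replicate 3 or 4, where it was up to 0.0575). Prdx6 did not pass (log2 0.27 with age and -0.33 with NR).

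In the thioredoxin and glutaredoxin list, 3 of 12 rose with age (Txnip, Glrx3 and Txnl1) and 1 of 12 fell with NR (Glrx). These called shares of 25% and 8.33% were near the 19.3% and 8.07% of all genes. DESeq2 and limma-voom each called 5 lower with NR and the likelihood ratio test 3, while with library totals 0 rose with age and Glrx alone fell with NR. Without young replicates 1 and 5, 0 rose with age. Txnip, which binds and inhibits thioredoxin, was at 448 ± 71.9, 596 ± 88.2 and 630 ± 48.4 CPM in young, aged and NR-treated HSC, a log2 rise of 0.42 with age (adjusted p = 0.0203) and 0.49 in NR-treated against young HSC (adjusted p = 0.01995). The first was lost without young replicate 4 or 5 or aged replicate 5 (adjusted p up to 0.0687) and the second without young replicate 1, 4 or 5 or NR-treated replicate 2 (up to 0.0608). Glrx, a glutaredoxin, was at 43.7 ± 5.67 CPM in aged and 29.9 ± 0.979 CPM in NR-treated HSC, a log2 fold change of -0.57 (adjusted p = 0.00901). Glrx3 and Txnl1 rose by 0.33 each with age, but the call was lost in 6 (Glrx3, without young replicate 3, 4 or 5 or aged replicate 2, 3 or 5, adjusted p up to 0.0928) and 11 (Txnl1, up to 0.144) of the 15 fits.

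In the glutathione list, 4 of 15 rose with age, 4 of 15 fell with NR, and 2 of 15 were lower in NR-treated than in young HSC. The called shares were 26.7%, 26.7% and 13.3%, beside 19.3%, 8.07% and 4.47% of all genes. Gstm1, a glutathione S-transferase, was at 185 ± 41.2, 381 ± 55.9 and 245 ± 33.4 CPM in young, aged and NR-treated HSC, with a log2 fold change of 1.04 with age (adjusted p = 5.38e-05) and -0.63 with NR (adjusted p = 0.0128). It belongs to a family of similar genes, and Gstm5 of that family rose by 0.58 with age. Whether reads were shared between them was not tested, so both counts are uncertain. Mgst1, a microsomal transferase, was at 50.2 ± 22.7, 44.7 ± 13.8 and 18.5 ± 3.08 CPM, a fall with NR of 1.31 on the log2 scale (adjusted p = 0.00763) and a difference of -1.44 from young HSC (adjusted p = 0.00204). Mgst3 rose by 0.70 with age (lost in 7 of 15 fits, adjusted p up to 0.181) and fell by 1.04 with NR (lost without aged replicate 3, adjusted p = 0.0595), and Ggct rose by 0.60 with age. Gsr, the glutathione reductase, fell by 0.87 with NR (lost in 7 of 15 fits, adjusted p up to 0.0761), and Gsta4 differed by -0.77 between NR-treated and young HSC (lost in 11 of 15 fits, adjusted p up to 0.122). Gsto1 did not pass.

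In the remaining lists, Tkt, the transketolase of the pentose phosphate pathway, fell by 0.54 with age (adjusted p = 0.0134) and Idh1, the cytosolic NADPH-producing isocitrate dehydrogenase, fell by 0.99 with NR (adjusted p = 0.0188, lost without aged replicate 3 or NR-treated replicate 4, where it was up to 0.068), each as the only called gene of 12 for NADPH supply. That is 8.33% of the list in each comparison, beside 19.3% of all genes with age and 8.07% with NR. Pgls did not pass. Of the 11 genes of Nrf2 control, 1 rose and 3 fell with age and 0 passed with NR in edgeR's quasi-likelihood and likelihood ratio tests and in limma-voom, where 2 had an unadjusted p under 0.05 in the first, while DESeq2 called Nfe2l2 lower and Cul3 higher, and the quasi-likelihood test with library totals called Cul3 higher. Nfe2l2, which encodes Nrf2, was at 107 ± 15.1, 143 ± 12.4 and 111 ± 15.4 CPM in young, aged and NR-treated HSC (log2 0.41 with age, adjusted p = 0.0206 and 0.0606 without aged replicate 3, and -0.36 with NR, adjusted p = 0.0674). Cul3, of the ligase that degrades Nrf2, was at 88.6 ± 15.1, 60.7 ± 4.69 and 80.0 ± 8.48 CPM (log2 -0.53 with age, adjusted p = 0.00556, and 0.38 with NR, adjusted p = 0.0597). Mafk, a small Maf partner of Nrf2, fell by 0.97 with age, and Hmox1, heme oxygenase 1 and a known Nrf2 target, by 1.21, from 4.62 ± 1.66 to 1.72 ± 1.04 CPM, a call lost without young replicate 4 or 5 or aged replicate 3 or 5 (adjusted p up to 0.0893). Sqstm1 did not pass. The called share of the Nrf2 list with age was 36.4%, beside 19.3% of all genes.

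Of 8 genes for selenoprotein synthesis, Sars, a seryl-tRNA synthetase, rose by 0.35 with age (adjusted p = 0.0182, and 0.1204 with library totals), 0 passed with NR in edgeR (2 with an unadjusted p under 0.05), DESeq2 or limma-voom, and Sephs2 and Pstk did not pass. The called share of this list with age was 12.5%, beside 19.3% of all genes. Of the 8 NADPH oxidase genes, whose complex produces superoxide in phagocytes, 0 passed with age in edgeR, also at an unadjusted p under 0.05, and 0 in DESeq2, while limma-voom called Cybb higher. In NR-treated HSC, Cybb (log2 -4.02, adjusted p = 0.0207) and Ncf4 (log2 -1.80, adjusted p = 0.015) were lower than in aged HSC, and Cybb (-3.96) and Ncf4 (-1.90) were lower than in young HSC. The Cybb calls were lost in 2 and 5 of 15 fits (adjusted p up to 0.0573 and 0.175), the second also without young replicate 3, the library with the highest granulocyte sum. Cybb was at 48.4 ± 80.5, 47.65 ± 23.15 and 2.84 ± 4.07 CPM in young, aged and NR-treated HSC (SD, n = 5 each). Its NR-treated level was near the limit of counting, where 3 counts make 0.834 to 1.21 CPM in these libraries. Rac2 and Cyba did not pass. The granulocyte markers (6 of 6) and part of the macrophage and monocyte markers (3 of 6) fell in the same comparison with aged HSC. Against young HSC, 6 of 6 granulocyte, 6 of 7 erythroid and 2 of 5 B cell markers were lower in NR-treated HSC, and the macrophage and monocyte markers did not pass in edgeR. In the same comparison 2 of 8 HSC markers (Ly6a and Procr) and 1 of 5 megakaryocyte and platelet markers were higher. The part of these cell types was not tested.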

How the data were processed

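Gene expression was measured in HSC of 15 mice, with 5 libraries per group by the labels. Libraries were 3′ biased and carried a UMI of 10 bases. STAR (version 2.4.2a in the submitters' processing notes) was used by the authors for alignment to GRCm38, followed by removal of duplicated UMIs and counting with featureCounts on GENCODE exons. The deposited values are raw counts per gene, without normalisation, for genes with more than 5 reads and 2 CPM in at least 2 samples by the study's methods. The UMI removal lets a count stand for a molecule, and the 3′ bias ties it to the end of the transcript.

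From these counts, groups were compared with edgeR 4.0.16 in R 4.3.3 by its quasi-likelihood test. The fit held all 15 libraries with TMM sizes and a factor for the group, and p-values were adjusted by Benjamini and Hochberg's method across the 16154 genes, with calls made under 0.05. The study's methods used the likelihood ratio test, which was run as an alternative, beside DESeq2 1.42.0, limma-voom (limma 3.58.1), fits of 2 groups, library totals, DESeq2's size factors, a filter of 10 counts in each library (8444 genes, all 10 enzymes and 62 pathway genes), counts thinned to the smallest total, a replicate block, an adjusted p under 0.01, each library left out in turn, and young replicates 1 and 5 left out. The 3 groups shared 1 estimate of the spread, so a library of the group not compared could change a call without being part of the difference. The share of calls among abundant genes was added after seeing the data. Intervals are 95% confidence intervals of the log2 fold change between groups, with an SE that rests on the spread between libraries. The scripts were tested on simulated data.

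The enzymes and lists were chosen with earlier results of these data known. Named genes are the 10 enzymes and, of each pathway list, the 2 with the highest mean CPM and the 2 with the smallest adjusted p, apart from 1 gene that is not reported here. Srxn1, Prdx4, Txnl1, Gstm5, Mgst3, Ggct, Gsr, Gsta4, Hmox1, Cybb, Junb and the HSC markers Ly6a, Slamf1 and Procr were named after their values were seen. The comparisons with aged HSC share the aged libraries. Replicate numbers were not taken as pairs, since the libraries came from different mice. Positions come from GENCODE M21 on GRCm38, a later release than the authors used, and promoter windows from RefSeq on GRCm38.p6. Shared sequence was searched in the last 500 bases of the longest transcript with BLAST 2.17.0, at 95% identity over at least 72 bases. Figures used Python 3.11.15 and matplotlib 3.10.9.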

Additional observations from a re-analysis of the deposited data

Results flagged for a closer look

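In groups of 5 libraries, the highest or lowest library was marked where its gap to the nearest other exceeded 0.71 of the group's range (Dixon). This marked 13 of 99 groups over the enzymes and the named pathway genes (13.1%), where chance marks about 1 in 20.

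Aged replicate 3, the deepest library, stood above the other aged libraries in Sod1 at 2335 CPM (others 1292 to 1517), in Prdx3 at 129 CPM (others 96.0 to 105) and in Cyba at 189 CPM (others 150 to 157). Young replicate 2 stood above the other young libraries in Gpx1 at 3614 CPM (others 2795 to 2963), in Prdx2 at 370 CPM (others 274 to 300.0), in Txn1 at 782 CPM (others 547 to 580) and in Mafk at 21.7 CPM (others 8.63 to 12.1). Of the NR-treated libraries, replicate 1 was highest in Sod2 at 174 CPM (others 115 to 131), replicate 3 was highest in Cat at 167 CPM (others 80.0 to 99.0) and lowest in Prdx3 at 84.8 CPM (others at least 96.4), and replicate 2 was lowest in Cyba at 91.8 CPM (others 134 to 149). Young replicate 3, the library with the highest granulocyte sum (4593 CPM), was lowest in Tkt at 262 CPM (others 322 to 342) and highest in Idh1 at 85.3 CPM (others 33.7 to 43.4).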

How the results depend on the processing

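No fold change of the 10 enzymes that passed the threshold changed sign under any alternative run. In aged against young HSC, 3 enzymes, 17 pathway genes and 3120 genes in all passed. Counts thinned to the smallest total gave 1, 7 and 1523, an adjusted p under 0.01 gave 1, 8 and 1317, and leaving out young replicates 1 and 5 gave 1, 10 and 1862. Leaving out 1 library gave 1 to 4 enzymes, 12 to 21 pathway genes and 1953 to 3533 genes, with 1 enzyme left without young replicate 4 or 5 or aged replicate 3 or 5 and the lowest count of genes without aged replicate 3.

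In NR-treated against aged HSC, 3 enzymes, 11 pathway genes and 1303 genes passed. The enzyme count was 1 with library totals, with a minimum of 10 counts per library, with thinned counts and without young replicates 1 and 5, and 0 at an adjusted p under 0.01. Where 1 enzyme was left it was Prdx1 with age and Gpx1 with NR in these alternatives. Pathway genes were 18 with DESeq2, 19 with limma-voom, 18 with only the 2 groups, 6 with thinned counts and 3 at an adjusted p under 0.01, and all genes were 783 with a minimum of 10 counts per library, 405 with thinned counts and 208 at an adjusted p under 0.01. Leaving out 1 library gave 1 to 3 enzymes, 6 to 18 pathway genes and 422 to 1535 genes. The enzyme count was 1 without young replicate 1 or 5, aged replicate 2, 3, 4 or 5, or NR-treated replicate 2, 3 or 4. Pathway genes were 17 and 18 without young replicates 2 and 3, 6 without aged replicate 3, and 7 and 6 without NR-treated replicates 3 and 4. All genes were 422 and 607 without aged replicates 3 and 5 and 538 and 534 without NR-treated replicates 3 and 4. In NR-treated against young HSC, 0 enzymes, 8 pathway genes and 722 genes passed. Pathway genes were 4 with a minimum of 10 counts per library and 4 at an adjusted p under 0.01, and all genes were 400 with thinned counts and 310 at an adjusted p under 0.01. Leaving out 1 library gave 0 to 1 enzymes (1 without NR-treated replicate 3), 5 to 10 pathway genes (5 without NR-treated replicate 2) and 452 to 922 genes (452 without NR-treated replicate 4). Thinning removes reads and a stricter threshold removes calls by construction. The cause of the other moves was not tested.

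With the replicate number as a block, 2 enzymes passed with age (Prdx1 and Txnrd1), 1 with NR (Gpx1) and 0 between NR-treated and young HSC. The pathway counts were 16, 13 and 9. Deviations of 15 same-numbered pairs correlated by 0.00212 on average (-0.27 to 0.133), 1 pair exceeded 0.1, and 1 of 15 libraries correlated best with its own number, so the numbers did not pair the libraries. The smallest library, aged replicate 2 with 764119 counts, had 26 counts of Gpx4 and 48 of Txnrd1, which limits what it can show for these genes.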
